A study of Mus musculus with 10 samples.

Results

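Beta-catenin, encoded by Ctnnb1, and the receptor Ror1 were examined in the mutation lists of mouse proximal colon organoids, by taking every listed mutation whose gene symbol is Ctnnb1 or Ror1. The rule found 4 of the 163 listed mutations, 3 in Ctnnb1 and 1 in Ror1. They were chosen by the measured values themselves, since a gene enters a list only through a called mutation, so their number and the cultures that hold them are a description, and no test was run on them. Organoids are self-renewing epithelial cultures grown in a gel, here from crypts of the first 2.5 cm of colon of male mice aged about 40 days, of C57BL/6 background. The mice were heterozygous for a silent BrafV600E allele that Cre switches on (Braf+/LSL), an activating form of a kinase of the MAPK pathway. A lentivirus delivered Cre, and the same vector without Cre (empty vector) served as control, so all cultures had passed through infection. The series design describes BrafV600E organoids selected for growth without stem-cell niche factors, and exome sequencing reads the coding mutations of such cultures.

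The 3 BrafV600E cultures, numbered 1 to 3, had been kept for 5 months and then in Base medium, which lacks the niche factors, for 3 weeks. Of the 7 empty-vector cultures, kept in full medium for the last 3 weeks, 1 had been cultured for 12 months and 1 for 14 months, and these had lists. Another 3 empty-vector cultures at 5 months and 2 at 2 months had no list in the table used here, so they give neither a presence nor an absence of a mutation. Whether any of them served as the comparator of a list is not stated, and a mutation that a comparator also carries could be missing from a list. Full medium held 50% Wnt3a, 20% R-spondin and 10% Noggin conditioned medium with EGF. The groups with lists therefore differ at once in the oncogene, the Cre vector, the medium and the months in culture, and these cannot be told apart. The labels do not say that the BrafV600E cultures came from separate mice. Read depth is unknown for every list.

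In canonical Wnt signalling, a Wnt ligand bound to Frizzled and Lrp5 or Lrp6 receptors stops the destruction of beta-catenin, which then enters the nucleus and drives transcription with Tcf and Lef factors. Without ligand, a complex of Apc, Axin, casein kinase 1 and Gsk3 phosphorylates regularly spaced serine and threonine residues near the amino terminus of beta-catenin. The ubiquitin ligase adaptor beta-TrCP (Btrc) recognises this phosphorylated stretch, the degron, and the protein is degraded. Missense changes in the degron are known from human colorectal and other tumours to stabilise beta-catenin. Ligands of this pathway and R-spondin, which raises receptor levels, maintain the stem cells of the colon crypt. Ror1 is a receptor tyrosine kinase-like protein that binds Wnt ligands, best known for Wnt5a, and acts mainly in branches that do not run through beta-catenin.

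Each of the 3 BrafV600E cultures had a listed mutation in 1 of the 2 genes, and none had both. Culture 1 had 2 Ctnnb1 mutations among its 31 listed mutations. Culture 2 had the Ror1 mutation among 22. Culture 3 had 1 Ctnnb1 mutation among 46. The 12-month empty-vector list held 0 such mutations of 24 and the 14-month list 0 of 40. As background, 0.434% of 21900 protein-coding RefSeq genes were listed in any BrafV600E culture and 0.283% in any long-term empty-vector culture; nothing is read from these shares about Ctnnb1 and Ror1, which were chosen for being listed. The 12-month list is of empty-vector culture 1 and the 14-month list of empty-vector culture 3, and the table names cultures of the same number alike (BRAF1 or BRAF3). The BrafV600E cultures with Ctnnb1 mutations, 1 and 3, thus each have an equally numbered empty-vector list without one, and culture 2 has no such list. The labels do not state that a number marks the same mouse. Ctnnb1 was listed in 2 of the 3 cultures selected in Base medium, and the culture without it, number 2, had passed the same selection. Whether growth in Base medium depended on any of these mutations was not measured.

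The Ctnnb1 mutations are written with the reference base first, then the position on chromosome 9 (mm10 and GRCm38, the builds of the submitters' processing notes), then the listed base. They are shown because of how close they lie to each other.
BrafV600E culture 3: C120950618T.
BrafV600E culture 1: C120950624A.
BrafV600E culture 1: C120950630A.
All were listed as missense, all replaced a C, and no position recurred between cultures. Ctnnb1 spans 120933400 to 120960507 on the plus strand, 27108 bp in the RefSeq annotation of GRCm38.p6, so the listed bases are also the bases of the coding strand. The mutations lay 17218, 17224 and 17230 bp from the annotated start of the gene, about 63.5% of the way along it. That share counts introns and untranslated parts, so it does not give the place in the protein.

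The positions fell in a stretch of 13 bp that touches 5 codons. Neighbouring positions were 6 bp apart, equal to 2 codons, both between the cultures (C120950618T of culture 3 and C120950624A of culture 1) and within culture 1. The outer positions, C120950618T of culture 3 and C120950630A of culture 1, were 12 bp or 4 codons apart. In the beta-catenin degron, neighbouring phosphorylated residues are 4 residues apart, a spacing taken from textbook knowledge and not from the files. Of the 3 pairs of positions, the outer pair had that spacing, and the middle position lay between them. All spacings are whole numbers of codons, so the 3 bases hold the same place in their codons if no intron lies within the stretch. The positions were not assigned to exons or to numbered residues, because no coding sequence of the gene was used here.

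**Figure D1:**
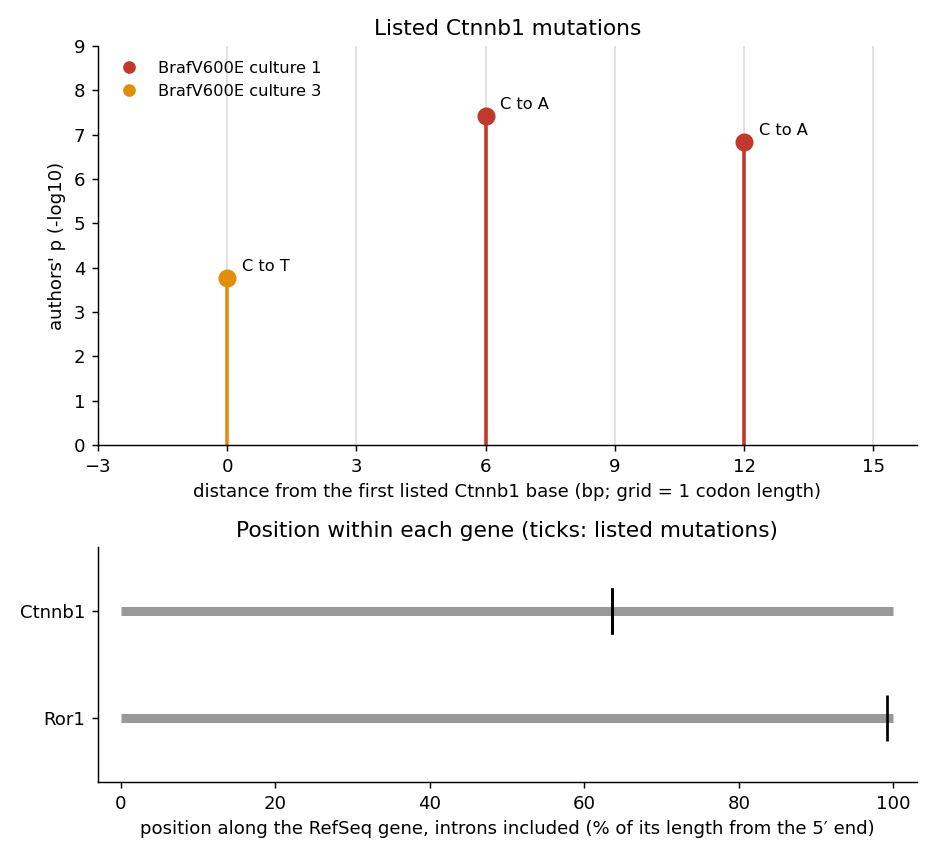
Top, the 3 listed Ctnnb1 mutations by distance in bp from the first (x axis, grid lines 1 codon length apart) and by the authors' p on the -log10 scale (y axis), coloured by culture; they stand at 0, 6 and 12 bp. Bottom, the same mutations and the Ror1 mutation as ticks along each RefSeq gene with introns included (x axis, % of gene length); the 3 Ctnnb1 ticks merge at this scale near 63.5%, and Ror1 lies at 99.2%.

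The genetic code narrows which residues these changes could have hit. At the third base of a codon, a C-to-T change is synonymous in 16 of 16 codons, so a missense C120950618T has to lie at base 1 or base 2. By the spacing, the same then holds for both mutations of culture 1 if no intron lies within the stretch. For these 2, base 3 is left out on that condition alone, since C-to-A there is missense in 5 of 16 codons. At base 2, the residues with a C are serine, proline, threonine and alanine. There, C-to-T would give serine to phenylalanine or leucine, threonine to isoleucine or methionine, alanine to valine, or proline to leucine. C-to-A at base 2 would give serine to tyrosine, threonine to asparagine or lysine, alanine to aspartate or glutamate, or proline to histidine or glutamine. At base 1, C-to-T as a missense change could hit arginine, histidine, leucine or proline, and C-to-A could hit these or glutamine. Serine and threonine, the residues phosphorylated in the degron, are therefore options at base 2 for each of the 3 mutations taken alone. At base 1 they are options for none of them. Which of these bases applies was not determined. The middle position, C120950624A, lies 2 codons from each outer one. With neighbouring phosphorylated residues 4 apart, it cannot be such a residue together with either outer position.

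The 2 Ctnnb1 mutations of culture 1 had authors' p-values of 3.82e-08 (C120950624A) and 1.49e-07 (C120950630A), which differ 3.90-fold. They ranked 16 and 17 of 31 when the list was ordered from the smallest p. The first of them was the median of the list, with 15 calls on either side. Directly above it stood Gm5640 (2.67e-08) and directly below the second stood Tln2 (3.84e-07), which encodes the integrin-linked cytoskeletal protein talin 2. The smallest p of the list belonged to B4gat1 (1.3e-21), a glycosyltransferase. Both Ctnnb1 calls thus stood in the middle of their list.

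The Ctnnb1 mutation of culture 3, C120950618T, had an authors' p of 0.000173 and ranked 35 of 46, so 34 calls had a smaller p and 11 a larger one. It stood between Abca1 (0.00014), a cholesterol transporter, and Kmt2d (0.000182), a histone methyltransferase. The smallest p of that list was that of the olfactory receptor Olfr799 (9.04e-35), and the median was 2.05e-06. This call was thus in the lower part of its list by the authors' measure. The p-values of the Ctnnb1 calls in cultures 1 and 3 are not compared as effects, since the table holds neither read depth nor the fraction of mutant reads, both of which move such a p.

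Ror1 carried A100442129G in culture 2, on chromosome 4 in the same notation. It was listed as missense, with an authors' p of 2.2e-26. This was the fourth smallest of 22, between Cyp2j5 (6.88e-30), a cytochrome P450, and the vomeronasal receptor Vmn2r107 (7.29e-25). The smallest p of the list was that of Lrrc41 (7.96e-33), and the median was 9.47e-09. Ror1 spans 100095791 to 100444806 on the plus strand (349016 bp), and the mutation lay 2677 bp before its annotated end. By the genetic code, an A-to-G change is missense in 16 of 16 codons at base 1 and in 14 of 14 at base 2, and at base 3 in 1 of 14, isoleucine to methionine. The residue and domain hit in Ror1 were not determined. The authors' mark for cancer genes of the COSMIC catalogue was set on all 3 Ctnnb1 mutations and not on Ror1. Over all lists 7 of 163 mutations were marked, 4 of them in other genes, so the mark was not particular to Ctnnb1. Of the marked mutations, 4 were in BrafV600E culture 1 and 3 in BrafV600E culture 3. BrafV600E culture 2 and both empty-vector lists had 0.

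**Figure D2:**
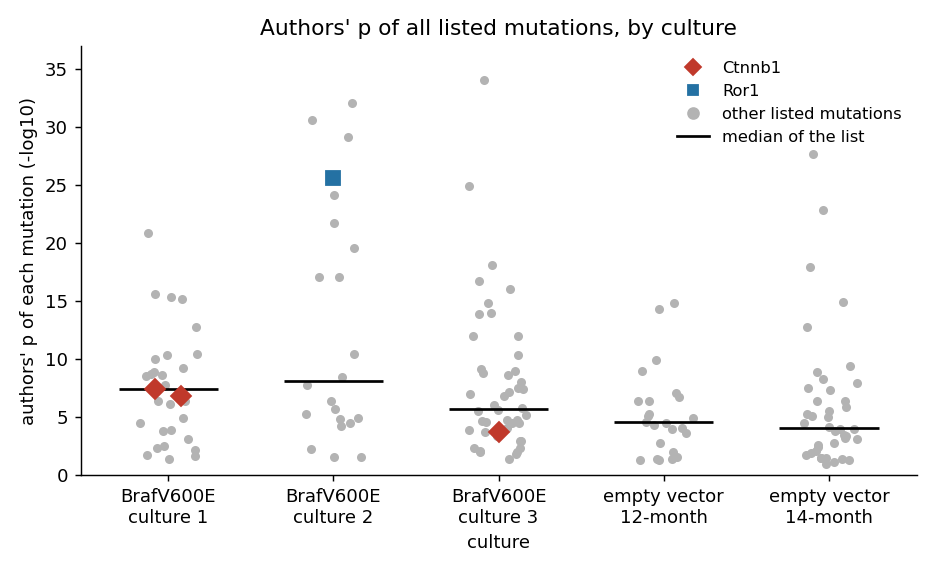
The authors' p of each listed mutation on the -log10 scale (y axis) in the 5 cultures with a list (x axis), with the median of each list as a line. The Ctnnb1 calls (diamonds) stand at 7.42 and 6.83 in culture 1, at and just under the median, and at 3.76 in culture 3, below it; the Ror1 call (square) stands at 25.7 in culture 2, near the top.

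Culture 1 held the closest pairs of calls within a gene. Across the 5 lists, 4 genes had 2 calls in 1 culture. At the limit of 1000 bp set for close pairs, Lrp1, Ctnnb1 and Olfr153 had such a pair. Those of Lrp1 and Ctnnb1 were in BrafV600E culture 1, that of Olfr153 in BrafV600E culture 3. Lrp1, a large endocytic receptor of the LDL receptor family, had G127595056T and G127595058T on chromosome 10, 2 bp apart, with authors' p-values of 2.13e-09 and 1.73e-09. Both Lrp1 changes and both Ctnnb1 changes are C-to-A when counted from the pyrimidine of the base pair. Outside culture 1, the genes with 2 calls were the olfactory receptor Olfr153 in culture 3 (102 bp apart) and Skint6 in the 12-month culture (40452 bp apart). The table does not say whether the paired changes lie on the same DNA molecule, so 1 cell lineage with both Ctnnb1 changes and separate lineages with 1 each cannot be told apart.

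The Ctnnb1 changes belonged to different substitution classes in the 2 cultures. In culture 1, both were C-to-A, the class of 18 of its 30 substitutions (60.0%, exact 95% interval 40.6 to 77.3%). Without the Ctnnb1 mutations, the class still made up 16 of 28 (57.1%). In culture 1, 16 C-to-A calls lay in genes with a known strand, and in 6 of these, the Ctnnb1 pair included, the C was on the coding strand. In culture 3, the Ctnnb1 change was C-to-T, a class of 9 of 44 substitutions (20.5%, exact 95% interval 9.80 to 35.3%). The Ror1 change counts as T-to-C, a class of 3 of 21 in culture 2 (14.3%, exact 95% interval 3.05 to 36.3%). Each list thus held further calls of the class of its Ctnnb1 or Ror1 change, and the intervals cover counting error only.

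**Figure D3:**
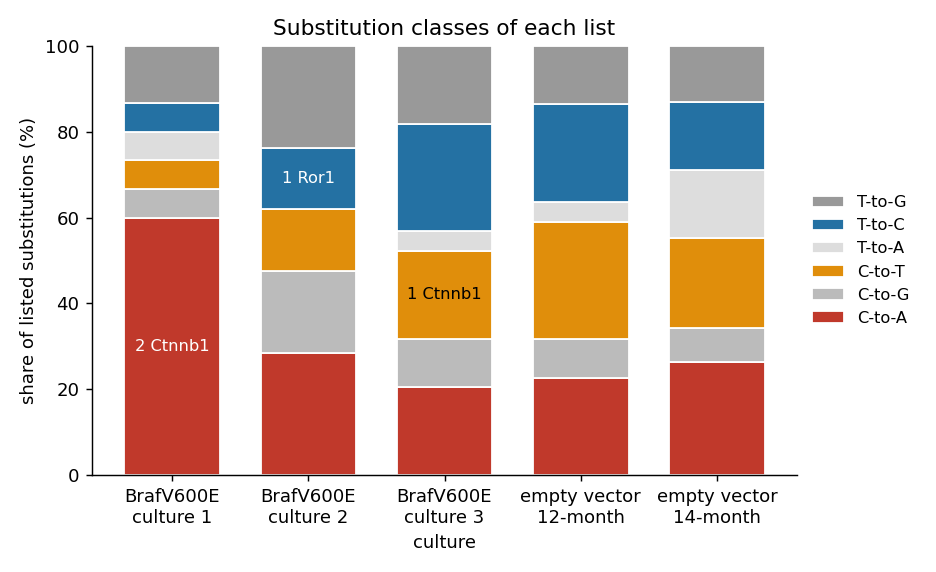
Share of each substitution class, counted from the pyrimidine of the base pair, among the substitutions listed in each culture (y axis, %; x axis, culture), with the Ctnnb1 and Ror1 mutations written in the segment they belong to. The 2 Ctnnb1 mutations of culture 1 sit in the C-to-A segment of 60.0%, that of culture 3 in a C-to-T segment of 20.5%, and Ror1 in a T-to-C segment of 14.3%.

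Apart from Ctnnb1 and Ror1, no gene of the Wnt pathway list was listed in any of the 5 cultures. This depends on how the list was drawn up. For the branches that do not run through beta-catenin, it holds ligands such as Wnt5a, receptors and the Dvl genes, but no later effectors. Nfatc1, which wider Wnt pathway sets include, is not in it and was listed in the 14-month empty-vector culture. The list has 106 genes, of which 2 were listed (1.89%), against 0.708% of 21900 protein-coding genes listed in any culture. The 2 genes are the ones the rule names, so nothing is read from this share. By role, 1 of 16 receptors was listed (Ror1), with no Frizzled and neither Lrp5 nor Lrp6. Of 18 nuclear effectors and their partners, 1 was listed (Ctnnb1), with no Tcf or Lef gene. None of the 21 transducers and destruction complex genes was listed, Apc, Axin1, Axin2, Gsk3b, Csnk1a1 and Btrc included. The 22 genes for ligands and their processing, the 9 of the R-spondin axis with the ubiquitin ligases Rnf43 and Znrf3, the 11 secreted inhibitors and the 9 target genes were likewise absent from the lists. The other niche factors of full medium are Noggin, an inhibitor of BMP ligands, and EGF. None of 21 genes of the Noggin and BMP axis was listed, nor any of 31 genes of the EGF receptor and MAPK axis. The unlisted genes include Braf, so the lists hold no check of the engineered allele. With 0.708% of all protein-coding genes listed in any culture, nothing is read from the absence of genes of lists this short. An unlisted gene may still be mutated, since the depth at its positions and the comparator of each list are unknown.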

How the data were processed

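Genomic DNA of 10 organoid cultures was measured by exome sequencing (TruSeq libraries, paired-end Illumina HiSeq reads, per the labels' protocols). The submitters' processing notes name mm10 and GRCm38. For aligner, caller, filters, statistical test and comparator, the sources used here give nothing. The authors deposited 1 table of 163 mutations in 5 cultures, with a p-value for each mutation and no read depth. It was used to rank calls within a culture, with -log10 of it in plots. Cultures and groups were taken from the titles and descriptions. Gene spans come from RefSeq (GRCm38.p6) and strands from its promoter table; the symbol of 1 mutation had no match. Codon options were enumerated from the standard genetic code with Biopython 1.88. Exact (Clopper-Pearson) intervals used SciPy 1.17.1, and tables pandas 2.3.3 under Python 3.11.15. The members, gene lists and rule for named genes (members, listed genes of the lists, the smallest p of each member's list and its neighbours in rank) were chosen with earlier results of these data known. Lrp1, Olfr153, Skint6 and Nfatc1 were named after their values were seen. No test was run, since the members were chosen for being listed. Alternatives were filters on the authors' p (0.001, 1e-05), 1 call per gene and culture, substitutions only, a canonical Wnt list, a list without the Ctnnb1 mutations, and leaving out each culture.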

Additional observations from a re-analysis of the deposited data

How the results depend on the processing

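Of 35 alternative values, 30 kept the counts, ranks and share within the limits set (1.5 times for a count, the exact 95% interval for a rank or share). Many of these could not have moved, so the 30 do not measure robustness. Leaving out an empty-vector culture, or counting substitutions only, cannot remove a Ctnnb1 or Ror1 mutation. The filter at 0.001 lies above the p of every Ctnnb1 and Ror1 call. The limits were also wide, since a fall from 3 to 2 mutations counted as kept. With an authors' p of 1e-05 or below, the number of BrafV600E cultures with a Ctnnb1 mutation was 1, because the call of culture 3 (p of 0.000173) was removed, and the number of Ctnnb1 mutations was 2. Over left-out cultures, Ctnnb1 mutations ran from 1 to 3 (1 without BrafV600E culture 1), cultures with Ctnnb1 from 1 to 2 (1 without BrafV600E culture 1 or 3), and Wnt list mutations from 2 to 4 (2 without BrafV600E culture 1). These are fewer because fewer calls or cultures were counted. The Wnt list held 3 mutations with 1 call per gene and culture, and 3 without the 4 receptors Ror1, Ror2, Ryk and Ptk7. No paired analysis was possible because no result comes from a test; the BrafV600E and long-term empty-vector lists share the numbers 1 and 3, and in both the Ctnnb1 mutations were in the BrafV600E list alone. Read depth and the comparator of each list are unknown, which limits whether an unlisted mutation was absent.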
